A study of Mus musculus with 6 samples.

Results

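The clustered histone genes are the genes of the 3 mouse histone clusters, taken here as every gene whose symbol in the authors' deposited table begins with Hist1h, Hist2h or Hist3h. There were 43 of them among 22349 named genes, with 32 on chromosome 13 (Hist1), 8 on chromosome 3 (Hist2) and 3 on chromosome 11 (Hist3). They comprised 5 genes for H1, 11 for H2A, 12 for H2B, 7 for H3 and 8 for H4. Where a gene had several probe sets, as 10 of the 43 did, its brightest probe set on average was used. Mouse bone marrow mesenchymal stem cells, stromal cells that can form bone, cartilage and fat, were seeded at 2500000 cells (dense cultures) or 15000 cells (sparse cultures). Both kinds of culture were collected 1, 2 and 3 days after seeding, with 1 Affymetrix array per density and day, which gave 3 dense and 3 sparse arrays. The sources used here do not give the strain, age or sex of the mice or the passage of the cells, and no treatment other than the density is named. All 6 titles share the prefix MSC 21, whose meaning is not given, so whether the cultures came from 1 isolate is unknown. The comparison asks how the densities differ over 3 consecutive days.

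Histones are the proteins around which DNA is wrapped: H2A, H2B, H3 and H4 form the nucleosome core, and H1 binds the linker DNA between cores. Most clustered histone genes are replication-dependent: they are transcribed in S phase, and their mRNAs end in a stem-loop bound by Slbp in place of a poly(A) tail. The amount of such mRNA in a culture is known to follow DNA synthesis, whereas variants such as H3.3 and H2A.Z come from polyadenylated mRNAs made throughout the cell cycle. A few clustered genes are also known from human or mouse work to give polyadenylated mRNA (Hist1h1c, Hist1h2bc, Hist2h2be and Hist3h2a), and 3 are known as testis variants (Hist1h1t, Hist1h2aa and Hist1h2ba). The other 36 are treated here as replication-dependent, among them Hist3h2bb, which RefSeq annotates as a transcribed pseudogene.

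The start regions of 5 members are shown because they carry the results. They include the members with the largest differences between densities in H2A, H2B, H1 and H4. Hist1h1c is added because its course in dense cultures ran the other way. Each line holds the 250 bases before the RefSeq start site in GRCm38.p6, read 5′ to 3′ on the gene's strand. Hist1h2ab lies at chr13:23750838-23751087, Hist1h2bb at chr13:23746484-23746733, Hist1h1a at chr13:23763418-23763667 and Hist1h1c at chr13:23738557-23738806, all on the plus strand. Hist1h4f lies at chr13:23551669-23551918 on the minus strand. Capitals mark matches, on either strand, to the CCAAT box, the TATA box TATAAA, the octamer ATTTGCAT (the site known for Oct1, encoded by Pou2f1) and AAACACA, an element known from H1 promoters.
Hist1h2ab: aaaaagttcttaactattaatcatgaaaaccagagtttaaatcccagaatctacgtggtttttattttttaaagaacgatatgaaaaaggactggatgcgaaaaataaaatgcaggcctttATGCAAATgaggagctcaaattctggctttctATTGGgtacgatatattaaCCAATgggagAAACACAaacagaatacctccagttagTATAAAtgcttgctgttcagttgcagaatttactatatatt
Hist1h2bb: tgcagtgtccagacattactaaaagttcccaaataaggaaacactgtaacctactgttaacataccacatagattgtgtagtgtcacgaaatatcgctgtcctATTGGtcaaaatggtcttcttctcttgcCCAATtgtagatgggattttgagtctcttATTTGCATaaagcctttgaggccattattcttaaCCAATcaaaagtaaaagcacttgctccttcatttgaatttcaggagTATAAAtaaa
Hist1h1a: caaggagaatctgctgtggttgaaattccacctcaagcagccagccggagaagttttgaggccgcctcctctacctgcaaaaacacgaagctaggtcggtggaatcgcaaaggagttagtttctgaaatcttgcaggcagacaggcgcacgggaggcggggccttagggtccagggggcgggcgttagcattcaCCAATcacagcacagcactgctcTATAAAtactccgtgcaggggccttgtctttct
Hist1h1c: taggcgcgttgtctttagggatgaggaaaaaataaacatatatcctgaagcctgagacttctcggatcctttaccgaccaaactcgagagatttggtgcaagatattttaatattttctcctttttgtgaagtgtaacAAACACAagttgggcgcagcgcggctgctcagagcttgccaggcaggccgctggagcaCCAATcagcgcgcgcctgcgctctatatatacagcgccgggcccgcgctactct
Hist1h4f: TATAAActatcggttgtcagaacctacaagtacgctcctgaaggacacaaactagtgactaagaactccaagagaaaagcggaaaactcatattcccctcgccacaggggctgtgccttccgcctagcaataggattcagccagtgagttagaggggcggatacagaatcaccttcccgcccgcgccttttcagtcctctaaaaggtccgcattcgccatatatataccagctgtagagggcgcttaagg

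The stretches of Hist1h2ab and Hist1h2bb each hold the octamer, CCAAT boxes on both strands and TATAAA. That of Hist1h4f holds no exact match to these but TATAAA at its far end. Only exact letters were marked, so the runs tatatata near the starts of Hist1h4f and Hist1h1c are in lower case. Whether any of these sites acts was not tested. Over all members, RefSeq held a start region for 37 of 43 genes, in 38 windows of 250 bases before to 50 bases after the start. CCAAT was found in 33 of the 38 windows (86.8%), against 37.4% of 32851 windows of all genes. It was found in only 2 of 7 windows of H4 genes. TATAAA was found in 21 windows (55.3%), against 13.6% of all windows. The octamer was found in 11 windows (28.9%), against 1.74% of all windows. These 11 were 5 of 11 H2A windows and 6 of 10 H2B windows, with none in the other classes. AAACACA was found in 8 windows (21.1%), 4 of them among the 5 H1 windows, against 7.18% of all windows. These shares describe the letters in the windows and were set against no expression value.

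Values are the authors' log2 RMA values, so that a difference of 1 is a 2-fold difference. Array medians ran from 4.33 to 4.45 over all probe sets. Of the 43 members, 40 passed the filter on low values (a mean of at least 3.32, the 25th percentile of all named genes). Hist1h1t lay just inside it at 3.41 and Hist2h2be just outside at 3.23. The 3 members under it were Hist1h2ae, Hist1h2ac and Hist2h2be, whose highest reading on any array was 3.62. There were no replicate cultures within a density and day. The p-values of differences between densities therefore reflect only whether a difference was steady over the days. Those of slopes reflect only how large a slope was beside the scatter of single arrays about a straight line. Some probe sets read closely related transcripts and are not independent. Hist1h3f, Hist1h3d, Hist1h3a, Hist2h3b and Hist1h3g lay within 0.0893 of each other on every array, and Hist1h2bc and Hist1h2be within 0.0405. Which of these genes gave the signal cannot be told apart. How the cRNA was primed is not given in the labels, and this bears on mRNAs without a poly(A) tail.

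Of the 40 members tested, 29 were lower in dense than in sparse cultures and 0 were higher (limma, Benjamini-Hochberg adjusted p under 0.05), against 2.90% of all 16762 genes lower and 8.26% higher. At an unadjusted p under 0.05, 38 members were lower and 0 higher, against 15.2% and 19.1% of all genes. All 3 dense arrays lay below all 3 sparse arrays in 37 of the 40 members, against 19.0% of all genes. The exceptions were Hist1h1c, Hist1h1t and Hist2h3c2. The median difference was -0.86 over the members and -0.05 over all genes tested, and 16 members were at least 2-fold lower over the mean of the 3 days (0.883% of all genes). In bulk RNA, fewer cells that express these genes and less of their RNA per cell cannot be told apart. The calls were lost without the arrays of day 2, when 0 members passed, and 0 of all genes did. In that fit 35 members were lower at an unadjusted p under 0.05, against 4.48% of all genes, and the median difference of the members was -0.94.

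**Figure D1:**
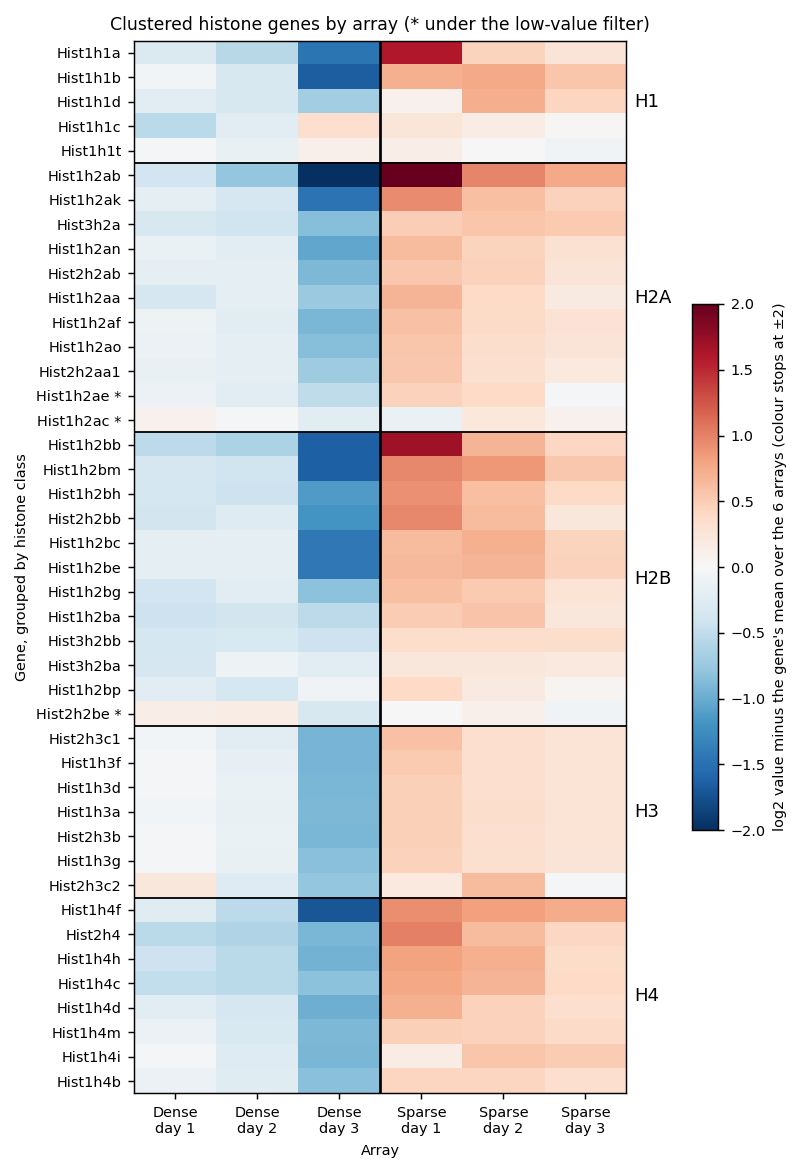
Log2 value of each of the 43 clustered histone genes on each array (columns, dense days 1 to 3 and then sparse days 1 to 3), relative to the gene's own mean over the 6 arrays, with genes in rows by histone class. Colours stop at 2 units either way and asterisks mark the 3 genes under the filter; day 3 of the dense cultures is the lowest column for most genes, and Hist1h1c is highest there.

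The linker histone genes held both large differences and none past the test. Hist1h1a gave 9.69, 9.43 and 8.52 in dense cultures on days 1, 2 and 3, against 11.58, 10.43 and 10.24 in sparse cultures. Its groups did not overlap, and the difference was -1.54 ± 0.20 (SE; limma adjusted p = 0.0140). Hist1h1b (-1.35, adjusted p = 0.0397) and Hist1h1d (-0.83, adjusted p = 0.0485) were also lower, and Hist1h1d lost its call without day 3, after a repeated quantile normalization, without the filter and with every probe set tested. Hist1h1t, the testis linker histone, read between 3.26 and 3.54 on the 6 arrays, close to the filter, and differed by -0.05 (adjusted p = 0.781).

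The other linker histone gene, Hist1h1c, differed in course. It gave 7.996, 8.33 and 8.89 in dense cultures on days 1, 2 and 3, against 8.78, 8.69 and 8.57 in sparse cultures. The dense value was below the sparse one on days 1 and 2 and above it on day 3, so that the groups overlapped. Over the 3 days the difference was -0.27 ± 0.22 (SE; limma adjusted p = 0.406).

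All 9 H2A genes tested were lower in dense cultures, with a median difference of -0.84. Hist1h2ab, a replication-dependent H2A gene, had the largest difference of all members. It gave 7.97, 7.57 and 5.62 in dense cultures, against 10.51, 9.33 and 9.11 in sparse cultures. Every dense array lay more than 1 unit below every sparse array, and the difference was -2.60 ± 0.32 (SE; limma adjusted p = 0.0135), a 6.06-fold lower level. The next was Hist1h2ak (-1.34, adjusted p = 0.0226). The calls of Hist1h2aa, Hist1h2ao and Hist2h2aa1 were lost without day 1.

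Of the H2B genes 9 of 11 were lower, with a median of -1.20, and the 9 treated as replication-dependent had the same median, against -1.35 for the 3 such H1 genes. The pseudogene Hist3h2bb (-0.70, limma adjusted p = 0.0238) was 1 of those lower. Hist1h2bb gave 7.36, 7.25 and 6.25 in dense cultures, against 9.57, 8.55 and 8.29 in sparse cultures. The groups lay apart, with a difference of -1.85 ± 0.20 (SE; limma adjusted p = 0.0104). Hist1h2bm differed by -1.57 (adjusted p = 0.0155) and Hist1h2bh by -1.27 (adjusted p = 0.0113). Hist3h2ba (-0.44, adjusted p = 0.0662) and Hist1h2bp (-0.42, adjusted p = 0.104) did not pass, and both were dim, with means over the 6 arrays of 4.17 for Hist3h2ba and 4.10 for Hist1h2bp. Hist3h2ba passed without the day in the fit and Hist1h2bp without day 3.

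Hist1h2bc was the member whose probe sets disagreed. Its brightest probe set gave 10.69, 10.71 and 9.45 in dense cultures, against 11.52, 11.60 and 11.33 in sparse cultures, and differed by -1.20 (limma adjusted p = 0.0338). This is the reading it shares with Hist1h2be. Another, chosen after its values were seen, gave 6.96, 8.02 and 8.08 in dense cultures, against 5.61, 6.76 and 7.39 in sparse cultures. It was higher in dense cultures by 1.10 ± 0.17 (SE; adjusted p = 0.0257 with every probe set tested), although the authors' deposited table gives it a p of 0.159. The mean of its 3 probe sets differed by -0.07 (adjusted p = 0.770). Which transcripts each probe set reads was not tested.

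The H3 genes had the smallest median, -0.72, and 1 of 7 passed: Hist2h3c1 (-0.80, limma adjusted p = 0.0391), which lost its call without day 1 and without the day in the fit. The 5 near-identical probe sets sat just outside the threshold, with adjusted p of at most 0.0569, and all 5 passed with limma's trend and robust options. Hist1h3d, 1 of these, gave 12.47, 12.38 and 11.59 in dense cultures, against 12.99, 12.84 and 12.79 in sparse cultures. Its dense arrays lay below its sparse arrays, with the day 3 value well under the rest. The 13 members above 12 on all sparse arrays differed by -0.92 to -0.69 (median -0.77), with 8 lower. The other 27 spread more widely, from -2.60 to -0.05 (median -1.20), with 21 lower. The part that signal compression plays was not tested. Hist2h3c2 read between 3.68 and 5.07 and differed by -0.53 (adjusted p = 0.128), and passed only without day 1 (-0.81, adjusted p = 0.0336).

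The H4 genes were lower in 7 of 8 cases, with a median of -1.12. Hist1h4f gave 9.14, 8.86 and 7.68 in dense cultures, against 10.31, 10.20 and 10.13 in sparse cultures. The sparse values hardly moved, and the difference was -1.65 ± 0.26 (SE; limma adjusted p = 0.0230). Hist1h4c gave 7.12, 7.07 and 6.79 in dense cultures, against 8.39, 8.29 and 8.01 in sparse cultures. Here the gap was close to the same on each day, and Hist1h4c (-1.24 ± 0.11), Hist2h4 (-1.37) and Hist1h4h (-1.26) shared the smallest adjusted p of the members, 0.00763. Hist1h4i (-0.81, adjusted p = 0.0815) passed only without day 1 (-1.13, adjusted p = 0.0310).

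**Figure D2:**
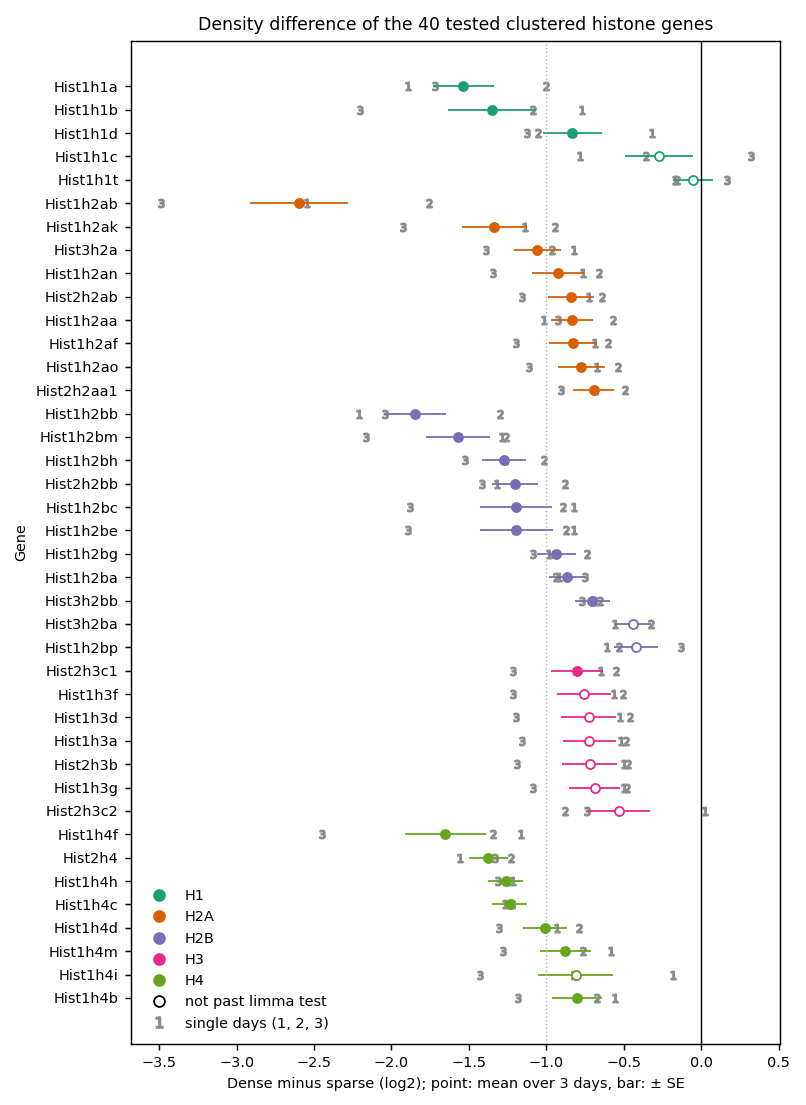
Dense minus sparse difference (log2) of each tested member over the 3 days (points, filled where past the limma test, bars ± SE), coloured by histone class, with grey digits for the single days. All 40 estimates lie below 0, with Hist1h2ab the lowest at -2.60.

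Split by mRNA type, 25 of 34 replication-dependent members tested were lower (median -0.86). So were 2 of 3 also known as polyadenylated (Hist3h2a and Hist1h2bc) and 2 of 3 testis variants. Hist1h2bc is counted here by the probe set whose reading it shares with the replication-dependent Hist1h2be. Another of its probe sets was higher in dense cultures by 1.10, so which mRNA type its count stands for cannot be told. Hist3h2a gave 7.87, 7.79 and 7.33 in dense cultures, against 8.69, 8.75 and 8.72 in sparse cultures. It did not overlap between groups and differed by -1.06 (limma adjusted p = 0.0183). The testis variants Hist1h2aa (-0.84) and Hist1h2ba (-0.87) were lower, but their highest readings on any array were 6.12 and 4.58. Hist1h2ba was dim, with a mean over the 6 arrays of 4.01. The difference between mRNA types was not tested.

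The gap was widest on day 3. Median differences of the 40 members were -0.77 on day 1, -0.78 on day 2 and -1.21 on day 3, against -0.03, -0.04 and -0.02 over all genes. Members lower in dense cultures numbered 39, 40 and 38 on the 3 days, against 54.0%, 53.6% and 51.4% of all genes. Members at least 2-fold lower numbered 12, 11 and 31, against 1.08%, 1.29% and 2.94%. In 29 members the downward difference was widest on day 3, against 32.6% of all genes. These were all 13 members above 12 on all sparse arrays, which include the 5 near-identical H3 probe sets, and 16 of the other 27. A single day has 1 array per density, so that none of these counts has a test.

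**Figure D3:**
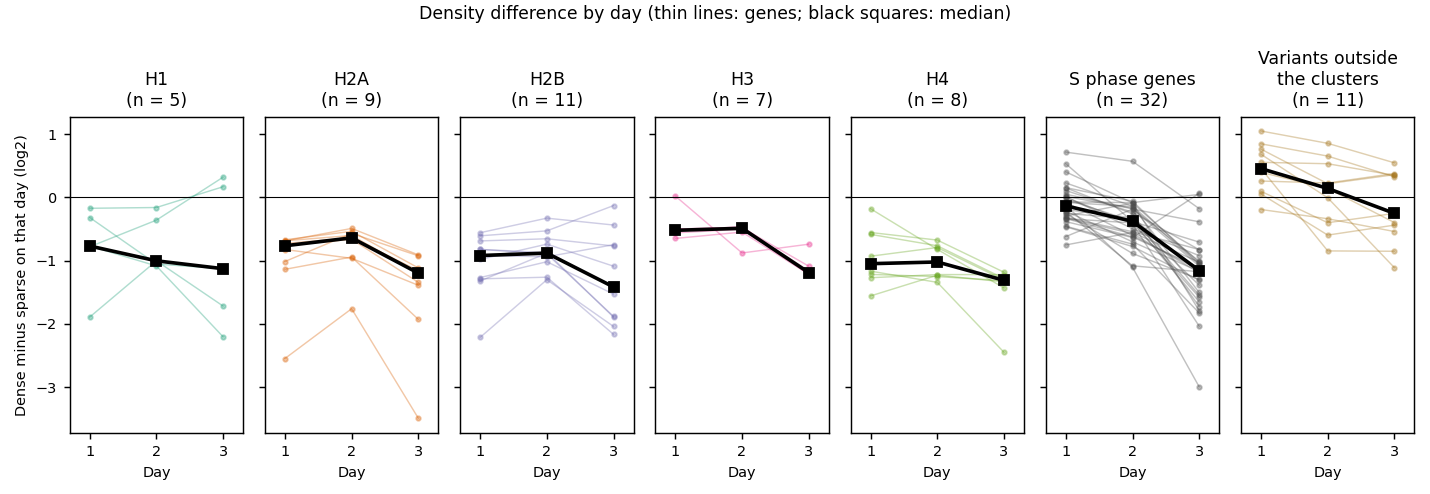
Dense minus sparse difference (log2) of each tested member on days 1, 2 and 3, 1 thin line per gene and 1 panel per histone class, beside 32 S phase genes and 11 polyadenylated variants outside the clusters, with black squares for the medians. The class medians lie below 0 on every day, all 5 are lowest on day 3, and Hist1h1c climbs from -0.78 on day 1 to 0.32 on day 3.

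Within the dense cultures most of the change over time lay between days 2 and 3. The mean of the 34 replication-dependent members tested was 9.26, 9.15 and 8.43 in dense cultures, against 10.16, 9.98 and 9.81 in sparse cultures. The day 3 value was below the day 2 value in 37 of 40 members (46.5% of all genes), with a median step of -0.68, after a median step of -0.10 between days 1 and 2, when 31 members were lower (50.1%). In the sparse cultures the steps were -0.12 and -0.13, and 39 of 40 members were lower on day 3 than on day 2 (52.4% of all genes) and 30 lower on day 2 than on day 1 (52.6%).

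As straight lines over the days, 3 members fell in dense cultures (2.64% of all genes fell): Hist1h2ab by 1.17 per day (limma adjusted p = 0.0309), Hist1h1b by 0.80 (adjusted p = 0.0313) and Hist1h4f by 0.73 (adjusted p = 0.0269). Hist1h1c rose in dense cultures, by 0.44 ± 0.09 per day (SE; adjusted p = 0.0416), as did 1.71% of all genes. At an unadjusted p under 0.05, 29 dense slopes were negative (10.2% of all genes) and 1 was positive (9.54%). With limma's trend and robust options 14 members fell, a count given without the share of all genes under these options. The call of Hist1h1c was lost with every probe set tested or with the arrays set to a common median. In sparse cultures 0 members passed in either direction (limma; 0.0477% of all genes fell and 0.0298% rose), with 5 negative (9.96% of all genes) and 0 positive (5.84%) at an unadjusted p under 0.05. The difference between the slopes passed for 0 members (limma; 0.113% of all genes negative and 0.0776% positive), with 4 negative (7.44% of all genes) and 1 positive (8.75%) at an unadjusted p under 0.05.

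**Figure D4:**
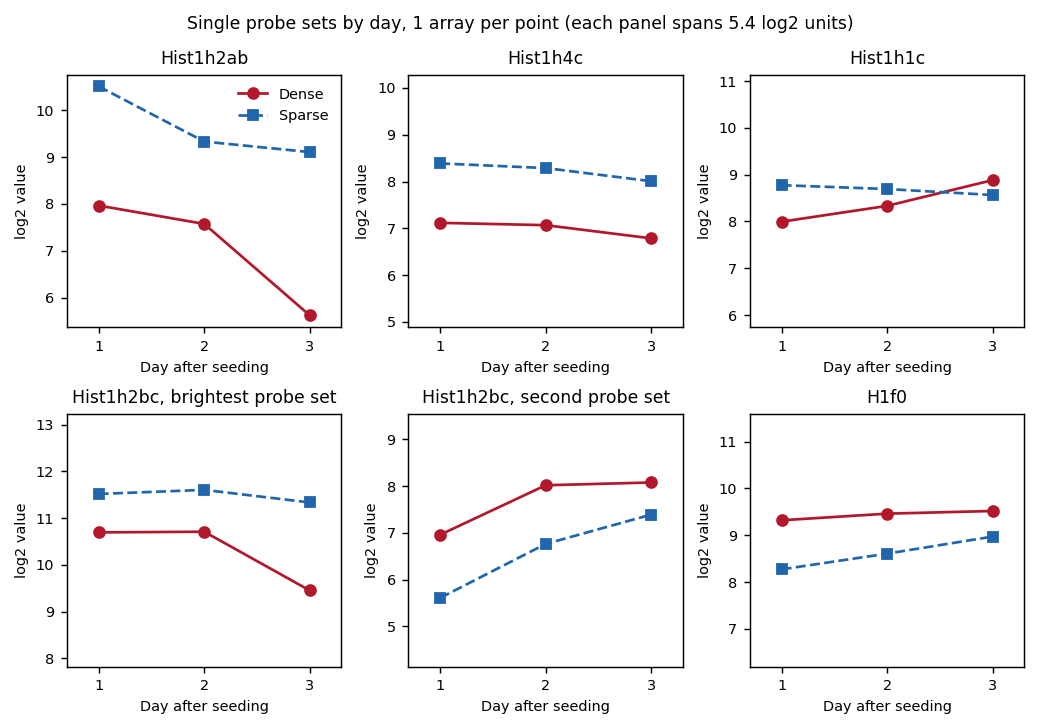
Log2 values over days 1 to 3 in dense (red circles) and sparse cultures (blue squares) for Hist1h2ab, Hist1h4c, Hist1h1c, both readable probe sets of Hist1h2bc and H1f0, 1 array per point and the same span on each y axis. The dense line lies below the sparse one for Hist1h2ab, Hist1h4c and the brightest Hist1h2bc probe set, above it for the other Hist1h2bc probe set and H1f0, and crosses it for Hist1h1c.

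Among variants with polyadenylated mRNA outside the clusters, the counts past the test were near the shares of all genes. The 1 gene called was the linker histone gene H1f0, which was higher in dense cultures. Of 11 tested, 0 were lower and 1 was higher (limma; 2.90% and 8.26% of all genes), and 1 was lower and 5 higher at an unadjusted p under 0.05 (15.2% and 19.1%), with a median difference of 0.05, against -0.05 over all genes. H1f0 encodes H1.0, known to accumulate in cells that stop dividing. It gave 9.32, 9.46 and 9.52 in dense cultures, against 8.27, 8.61 and 8.97 in sparse cultures. Its groups did not overlap, and it was higher in dense cultures by 0.82 (adjusted p = 0.0273), a call lost without day 1 and without day 2. Over the alternatives 0 to 3 of the 11 were higher. There were 3 when the day was left out of the fit (1702 of all 16762 genes) and 2 without day 3 (1717 of all genes). Without day 1, 1 was lower (2.44% of all genes). H2afv (0.61), H3f3a (0.48), H2afy2 (0.45) and H2afx (-0.41) did not pass. By day the median differences of the 11 were 0.45, 0.14 and -0.25. On the 3 days 1, 5 and 6 of them were lower in dense cultures, against 54.0%, 53.6% and 51.4% of all genes. In dense cultures 1 of the 11 fell over the days (2.64% of all genes).

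S phase genes, whose products copy DNA when replication-dependent histones are made, were set beside the members. Of 32 tested, 2 were lower and 0 higher (limma; 2.90% and 8.26% of all genes), and 16 were lower and 0 higher at an unadjusted p under 0.05 (15.2% and 19.1%). The median difference was -0.59. Without day 1, 7 were lower (2.44% of all genes), and without day 2 none (0% of all genes). After a repeated quantile normalization 4 were lower (4.87%), and without the day in the fit 1 (3.08%). By day their median differences were -0.13, -0.38 and -1.16. On the 3 days 0, 2 and 24 of them were at least 2-fold lower, against 1.08%, 1.29% and 2.94% of all genes. In dense cultures 22 of the 32 fell over the days (2.64% of all genes). Ccne1, the cyclin that opens S phase, gave 7.99, 7.60 and 6.81 in dense cultures, against 8.46, 8.38 and 8.11 in sparse cultures (-0.85, adjusted p = 0.0435). Rrm2, a ribonucleotide reductase subunit, gave 9.29, 8.35 and 6.54 in dense cultures, against 9.42, 9.45 and 9.53 in sparse cultures (-1.41, adjusted p = 0.119). Mcm5 (-1.01), Cdc6 (-0.83) and Ccna2 (-0.82) did not pass. On day 1 the median difference was -0.77 for the members and -0.13 for these genes, a contrast that was not tested.

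For the difference between densities, the lists for making and carrying histones had called shares close to those of all genes. Of 18 genes for histone mRNA transcription, 3′ end processing and decay, 0 were lower and 1 was higher (Zcchc6, a terminal uridylyltransferase, 0.61, limma adjusted p = 0.0323), against 2.90% and 8.26% of all genes. At an unadjusted p under 0.05, 4 were lower and 3 higher (15.2% and 19.1%), and the median was -0.11. Over the alternatives 0 to 2 were higher, with 0 without day 2, as for all genes, and 2 without the day in the fit (1702 of all 16762 genes). Zcchc11 (0.86), another uridylyltransferase, Ncbp1 (-0.52), Srrt (-0.40) and Upf1 (-0.40) did not pass. Slbp, the stem-loop binding protein, differed by 0.06 (adjusted p = 0.848). Of 18 histone chaperone genes, Chaf1b, a subunit of the chromatin assembly factor CAF-1, was lower and Atrx, which deposits H3.3 with Daxx, was higher (0.65, adjusted p = 0.0350, lost after a repeated quantile normalization), and 3 were lower and 1 higher at an unadjusted p under 0.05, with a median of -0.02. Without day 1, 3 chaperone genes were lower (2.44% of all genes), and without day 2 none was lower or higher, as for all genes. Chaf1b gave 7.46, 6.82 and 6.11 in dense cultures, against 8.11, 8.17 and 7.90 in sparse cultures (-1.27, adjusted p = 0.0289). Asf1b (-0.99), Chaf1a (-0.66) and Nap1l1 (-0.34) did not pass. Over the days in dense cultures 4 of the 18 chaperone genes fell, Chaf1b, Chaf1a, Asf1b and Nasp, against 2.64% of all genes. Of the 18 genes for histone mRNA transcription, processing and decay 0 fell.

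Among the 16722 tested genes other than the members, 246 had a Pearson r over 0.95 with the mean of the 34 replication-dependent members over the 6 arrays. Where these genes lie was not checked, and whether any of their probe sets also read histone transcripts was not tested. The 10 highest were Gm6340 (0.998), Gm11276 (0.997), Rasa4 (0.994), Fhl3, Hip1r, Arhgef5, Dpf1, Gpd2, Hspa4l and Atp1b1 (0.990). All points share the same 6 arrays, so these values are descriptions.

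Of 9 stromal cell markers, all passed the filter and 6 were higher in dense cultures (8.26% of all genes). Eng, Nt5e and Vcam1 did not pass the test. Readings of the 9 ran from 4.11 to 12.75. Eng, at 4.11 to 4.52, read below the macrophage marker Cd68 (4.57 to 4.93). Markers of other marrow cells stayed low: 3 of 8 macrophage and leukocyte markers passed the filter, none above 5.22 on any array, and their summed log2 level was 29.3 to 29.4 in dense and 29.1 to 29.6 in sparse cultures. Of the lymphocyte, erythroid and endothelial markers, 2 of 5, 3 of 4 and 2 of 4 passed the filter, and 0 of them passed the test in either direction (limma; 1 erythroid marker was lower at an unadjusted p under 0.05).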

How the data were processed

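Expression was measured on 6 Affymetrix arrays. The authors deposited 1 log2 value per probe set and array, used here unchanged, and RMA and Partek are named, without versions, in the submitters' processing notes. The sources used here give neither the array model nor the annotation release. Near background RMA understates folds. The authors' deposited table adds a p-value and a signed fold score of dense against sparse per probe set, per the file headers. Recomputed, its p-value matched an unpaired test with equal variances and no day term (largest gap 0.00216). A further 6 columns of per-sample values were not used. Of its probe sets, 25917 carry a symbol.

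Density and day came from the labels. All 16762 genes past the filter were fitted together with limma 3.58.1 in R 4.3.3 (lmFit, eBayes, 2-sided, Benjamini-Hochberg over all genes): density plus the day as a factor, and a mean and a slope per day for each density, each with 2 residual degrees of freedom. Same-day arrays' deviations from their density means correlated at 0.127, 0.0750 and 0.0674, and those of different days at -0.150 to 0.109; the day stayed in the fit because the labels give it. All members are accounted for, and up to 5 genes of each compared list are named by the size of their difference, with the 10 genes most alike in profile. Slbp and Nasp lie outside that rule and were chosen after their values were seen. The other S phase gene past the test is not reported here. The fits were tested on simulated data. Members, lists and mRNA types were chosen with earlier results of these data known. The number of arrays limits the precision. Sequences are from RefSeq (GRCm38.p6).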

Additional observations from a re-analysis of the deposited data

Results flagged for a closer look

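Hist1h1c rose over the days in dense cultures, with a log2 value higher at each later day. In sparse cultures its value was lower at each later day, but that slope, -0.11 ± 0.09 per day, did not pass (SE; limma, unadjusted p = 0.279, adjusted p = 0.623). The members tested had a median sparse slope of -0.14, with 36 of 40 negative. The dense slope was 0.44 per day and exceeded the sparse slope by 0.55 ± 0.13 per day (SE; limma, unadjusted p = 0.00326, adjusted p = 0.109), which fails the correction over all genes. At an unadjusted p under 0.05, 8.75% of all genes had a positive difference. Each point is 1 array.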

How the results depend on the processing

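The 29 lower members were recomputed under 11 alternatives. Under the 8 that keep all days, 28 to 34 members were lower (2.18% to 4.87% of all genes), and 29 without the day as a replicate block (3.08%). Leaving out both arrays of 1 day gave 0 to 29. There were 0 without day 2 (0% of all genes), 27 without day 1 (2.44%) and 29 without day 3 (4.80%). Of the 29 genes, 22 kept their call in every alternative other than leaving out day 2. The median difference stayed between -0.97 and -0.70. Members that fell over the days in dense cultures numbered 14, against 3, with limma's trend and robust options, given without the share of all genes. Members that rose there numbered 0, against 1, with every probe set tested and with arrays set to a common median. Hist1h1t changed sign, to 0.0086 after quantile normalization and to 0.0040 without day 1, with -0.17 to 0.0040 over the days left out. Slopes were not refitted without a day, since 2 points per density leave no residual degrees of freedom. The causes were not tested. Dim and very bright probe sets limit what differences can be read, and 1 array per density and day leaves the spread of replicate cultures unmeasured.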

Other observations

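Hist4h4, a histone H4 gene whose symbol lies outside the pattern used for the members and which was named after its values were seen, was lower in dense cultures, with a log2 difference of -1.39 (limma adjusted p = 0.00719), with every dense array below every sparse array.

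Neighbouring H2A and H2B genes formed 5 pairs in the RefSeq gene order. Both genes were lower in 2 of them: Hist1h2ab (-2.60) with Hist1h2bb (-1.85), the largest differences of their classes, and Hist1h2aa (-0.84) with the dim Hist1h2ba (-0.87). In the other pairs 1 gene did not pass the test (Hist1h2bp, beside Hist1h2an) or lay under the filter (Hist1h2ae beside Hist1h2bg, and Hist1h2ac beside Hist1h2bc).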
